A study of Homo sapiens with 6 samples.

Results

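Expression of 50 genes of DNA damage signalling and double-strand break repair was followed in LP-1 myeloma cells that carried either an AURKA guide or a non-targeting guide. The 50 genes were taken by symbol from a named list, with no threshold on a measured value but with earlier results of these data known, out of 17579 genes in the deposited gene table. All 50 were found, and all 50 passed the filter on low counts that left 13138 genes to test. They were sorted by role into 10 genes of damage signalling, 6 of end resection, 14 of homologous recombination, 10 of the Fanconi pathway, 7 of end joining, and 3 that code for PARP1, PARP2 and DNA polymerase theta.

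A double-strand break is sensed by the MRE11 complex and by the kinases ATM and ATR, which pass the signal to the checkpoint kinases CHEK1 and CHEK2. The broken ends are then either rejoined directly by end joining, which needs the Ku proteins and the DNA-dependent protein kinase, or cut back to single strands and copied from the sister chromatid by homologous recombination. The Fanconi pathway removes crosslinks between the strands and feeds the resulting breaks into recombination. Myeloma cells arise from plasma cells, whose precursors pass through programmed breaks at the immunoglobulin genes, and breaks that are joined wrongly there are the known source of translocations such as the t(4;14) of LP-1.

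LP-1 is an established human line from multiple myeloma, and the labels also call its cells B lymphoblasts. The control group holds 3 libraries from cells infected with virus carrying a non-targeting guide, and the AURKA-guide group holds 3 libraries from cells whose virus carried a guide to AURKA, which codes for Aurora A, a kinase of mitosis. Both groups grew in medium with 10% FBS, and no further agent is given for either. The control libraries are called C1, C2 and C3 below and the AURKA-guide libraries A1, A2 and A3. The labels give neither the time from infection to harvest nor whether the replicates were separate cultures or the infected cells a clone or a pool, so each p-value reflects the spread of these 6 libraries alone, and that spread may be technical.

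The libraries held between 17724174 and 18523594 expected counts, and levels are given as CPM, counts scaled to the library size by the usual factor, where 1 CPM is about 18 reads. AURKA itself averaged 192 ± 2.85 CPM with the non-targeting guide and 115 ± 3.86 with its own (mean ± SD of 3 libraries), a log2 fold change of -0.74 (SE 0.0488, edgeR quasi-likelihood test, adjusted p = 1.55e-06). This checks the labels at the RNA level and says nothing about the protein or the share of cells edited. Plasma cell markers were present, from JCHAIN at 5332 CPM to SDC1 at 90.9, with SLAMF7 low at 0.737. None of the 5 matched T and NK cell markers and none of the 4 erythroid markers passed the filter, against 2 of 5 myeloid, 1 of 5 stromal and 4 of 5 epithelial markers, which were at most at 5.02 CPM (ACTA2). C3 differed most from the other controls: the chi-square per gene was 5.22 against C1 and 10.5 against C2, beside 2.24 to 2.96 in the other pairs of 1 group, and results that rest on it are given with and without it.

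Promoters of cell cycle genes are known for the E2F site, of genes switched on before S phase, and for the CCAAT box and the CHR element, of genes expressed in G2 and mitosis. RefSeq promoter windows (build GRCh38.p14, 250 bases before to 50 after the start) were matched for 44 of the 50 genes. Those of DNA2, NBN, WRN, PRKDC, XRCC5 and FANCI were not used here. TOPBP1 and EXO1 are shown because they carry an E2F match near the start, and MRE11 because it carries a pair of CCAAT boxes and had one of the lowest p-values among the 50. Each is printed 5′ to 3′ on the gene's own strand, 280 bases long and ending 30 bases after the start, with the matched letters in capitals. TOPBP1 lies on the minus strand at chr3:133661912-133662191, EXO1 on the plus strand at chr1:241847954-241848233, and MRE11 on the minus strand at chr11:94493815-94494094.
TOPBP1: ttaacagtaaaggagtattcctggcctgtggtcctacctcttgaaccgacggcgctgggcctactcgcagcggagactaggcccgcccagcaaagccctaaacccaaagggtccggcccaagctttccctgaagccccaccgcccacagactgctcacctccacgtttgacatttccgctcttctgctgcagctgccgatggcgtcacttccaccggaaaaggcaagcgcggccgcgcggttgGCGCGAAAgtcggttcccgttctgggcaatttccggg
EXO1: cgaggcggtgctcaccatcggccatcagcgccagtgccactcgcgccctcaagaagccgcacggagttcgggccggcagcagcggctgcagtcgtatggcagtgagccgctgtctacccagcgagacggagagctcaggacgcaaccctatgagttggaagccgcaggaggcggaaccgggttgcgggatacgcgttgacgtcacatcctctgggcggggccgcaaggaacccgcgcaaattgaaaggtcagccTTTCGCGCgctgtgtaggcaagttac
MRE11: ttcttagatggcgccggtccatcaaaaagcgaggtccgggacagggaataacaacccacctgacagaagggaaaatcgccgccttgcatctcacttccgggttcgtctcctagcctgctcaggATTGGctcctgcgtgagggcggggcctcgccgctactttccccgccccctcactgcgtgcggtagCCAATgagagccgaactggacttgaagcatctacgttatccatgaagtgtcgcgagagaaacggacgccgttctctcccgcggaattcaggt

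The E2F search used TTTCGCGC or TTTGGCGC on either strand and found a match in 4 of the 44 windows (9.1%), those of TOPBP1, EXO1, FANCC and XRCC6, against 1.2% of all 27305 RefSeq promoters and 2.1% of those of tested genes. In TOPBP1 it begins 7 bases before the start, on the strand opposite to the gene's own, so the reverse complement is seen in the printed run. In EXO1 it begins at base 5 after the start, on the gene's own strand. CCAAT, also searched on both strands, was present in 20 of 44 windows (45.5%) against 35.7% of all promoters and 37.0% of those of tested genes. In MRE11 the boxes begin 127 and 62 bases before the start. The first is on the strand opposite to the gene's own and is printed as its reverse complement, ATTGG. The CHR element, searched as TTTGAA or TTCGAA on both strands, was in 6 windows (13.6%) against 16.6% and 11.4%. No motif contains another, a match is a description of the window only, and the start used lay within 200 bases of a GENCODE transcript start for 41 of the 44 genes. The exceptions were MDC1 (206 bases away), RAD51B (3712) and BRCA1 (44844); the windows of RAD51B and BRCA1, which held none of the 3 motifs, are counted in the shares but say nothing of the usual start of these genes.

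The genes of the 50 differed widely in level. Levels between genes are compared as FPKM, the authors' fragments per kilobase of transcript and per library size. XRCC6 and XRCC5, which code for the Ku70 and Ku80 subunits that clamp onto a broken end, had the highest mean levels over the 6 libraries, 199 and 166 FPKM, followed by PARP1, the break sensor that builds poly(ADP-ribose), at 116. PRKDC, the catalytic subunit of the DNA-dependent protein kinase, was at 58.1 FPKM, and MDC1, the scaffold that binds marked chromatin at breaks, at 49.9. The lowest were BRCA2, a central mediator of homologous recombination, at 1.92 FPKM, FANCM, a helicase that recognises stalled forks, at 2.17, FANCC at 2.78 and RAD52, a strand-annealing protein, at 2.81. The median over the 50 genes was 10.4 FPKM. By role the median level was 14.1 FPKM for the PARP and polymerase theta genes, 13.4 for end joining, 11 for resection, 10.9 for the Fanconi genes, 10.0 for homologous recombination and 9.38 for damage signalling. End joining also held genes below the median of the 50: XRCC4 was at 8.36 FPKM and DCLRE1C at 7.80, and LIG4, the ligase that seals the ends, was at 4.64 FPKM.

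**Figure D1:**
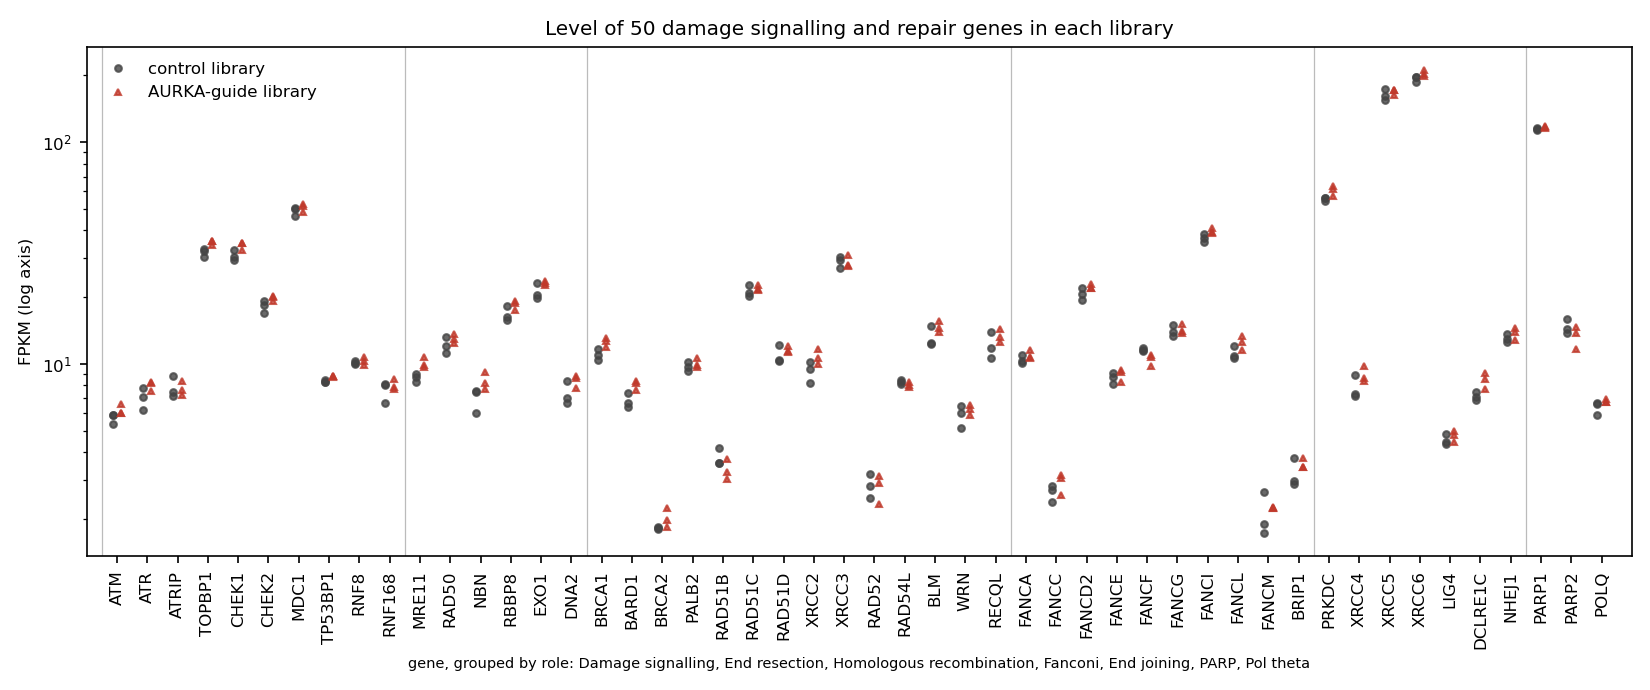
FPKM (log axis) of each of the 50 genes in each of the 6 libraries; circles are control and triangles AURKA-guide libraries, and vertical lines part the role groups. Genes span 1.92 (BRCA2) to 199 FPKM (XRCC6) on average, and the libraries of 1 gene lie close together on that scale.

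No gene of the 50 passed the test between the groups. The edgeR quasi-likelihood test with Benjamini-Hochberg adjustment over all genes at 0.05 called 0 of 50, where 2.03% of all tested genes were called (0.959% higher, 1.07% lower); the lowest adjusted p-values were 0.0867 for BRCA1, 0.0928 for MRE11 and 0.120 for BARD1. DESeq2 (background 2.14%) and limma on log2(FPKM + 1) (1.70%) also called 0. At an unadjusted p under 0.05, 15 were higher and 1 lower by edgeR, against a background of 7.54% and 8.58% (16.1% in either direction). By DESeq2, 11 were higher and 0 lower at that level (background 5.18% and 6.31%), and by limma 9 higher and 1 lower (6.92% and 8.53%). Other settings of edgeR and limma also called 0 of the 50: DESeq2 size factors (background 1.84%), library size alone (2.02%), no filter (1.57%), a minimum of 10 CPM (2.02%), log2(FPKM + 0.1) (1.61%) and the replicate number as a block (2.93%). The minimum of 10 CPM left 48 of the 50 to test. The authors' deposited table of changed genes lists 229 genes and none of the 50.

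The values nevertheless leaned to one side. In 44 of 50 genes the log2 fold change was above 0, against 50% of all tested genes, and the median was 0.10, against -0.0001 for all. Without C3, 43 of 50 were above 0, against 6668 of 13283 tested genes, with medians of 0.14 and 0.001. With all 6 libraries, the groups did not overlap in 13 genes with the AURKA-guide libraries higher (background 10.5%) and in 1 with them lower (background 10.2%), while 36 overlapped. The range ran from -0.16 (RAD51B) to 0.22 (BARD1), and the 95% confidence bounds of single genes reached from -0.41 to 0.38. In bulk RNA, a change in the share of cells that express a gene and a change in RNA per cell cannot be told apart. C3 was the highest control library for 32 of the 50 genes. The share over all tested genes is not given here, and tested genes low in GC content were also raised in C3, as described below.

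By library, the median deviation of the 50 genes from their control mean, on the log2 scale, was -0.015 in C1, -0.058 in C2 and 0.073 in C3, and 0.090 in A1, 0.11 in A2 and 0.12 in A3. The 3 AURKA-guide libraries lay together and above every control, with C3 close below them. The spread between controls (SD 0.067) was wider than that between AURKA-guide libraries (SD 0.016).

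**Figure D2:**
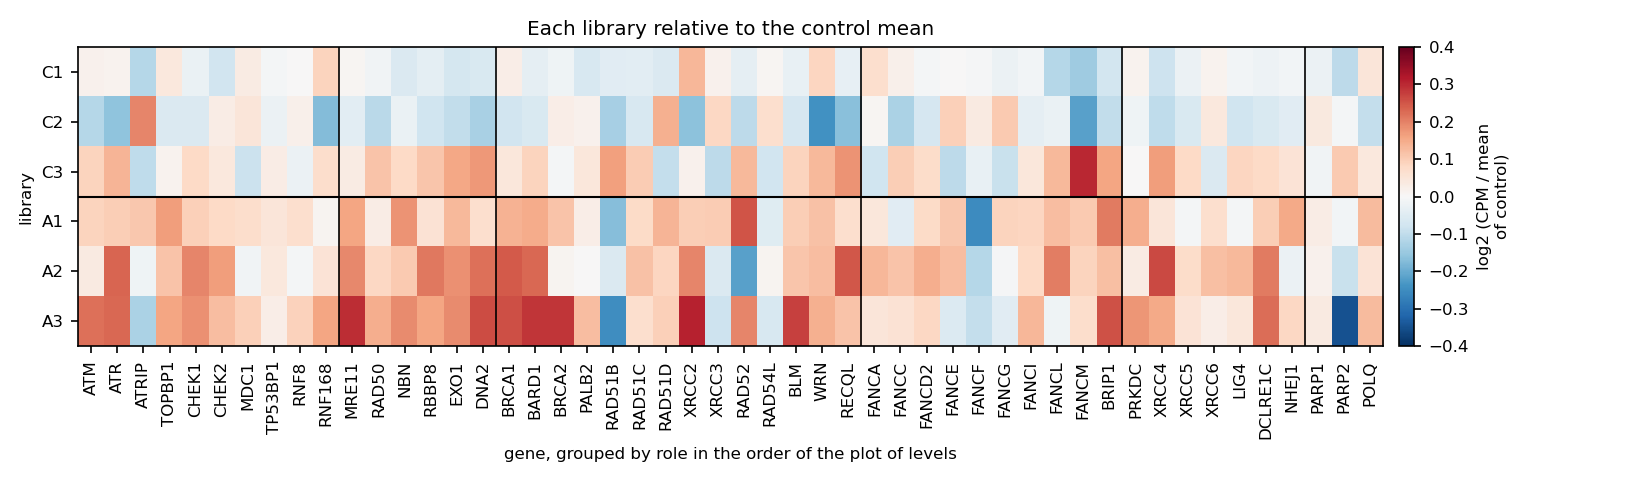
Heat map of log2 (CPM over the control mean) of each gene in each library; red is above and blue below the control mean, and the horizontal line parts control from AURKA-guide libraries. The C3 line is red for most genes like the 3 lines below it, with medians of 0.073 in C3 and 0.090 to 0.12 in A1 to A3.

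Among the 10 genes of damage signalling, 9 had a log2 fold change above 0, with a median of 0.096. TOPBP1 (gene ID 11073), which activates ATR at single-stranded DNA, was at 175, 163 and 172 CPM in C1 to C3 and at 191, 184 and 190 in A1 to A3. All 3 AURKA-guide libraries were above the highest control, with a log2 fold change of 0.15 (SE 0.0485, adjusted p = 0.154 by edgeR). CHEK1 (gene ID 1111), the checkpoint kinase below ATR, was at 89.6, 87.6 and 96.6 CPM in control and 97.5, 104 and 104 in AURKA-guide libraries. C3 nearly reached A1, and the log2 fold change was 0.16 (SE 0.0560, edgeR adjusted p = 0.187). ATR (gene ID 545) was at 58.5, 51.8 and 63.6 CPM in control and 62.1, 68.1 and 68.0 in AURKA-guide libraries, so C3 lay above A1 (log2 fold change 0.19, SE 0.0728, edgeR adjusted p = 0.224). MDC1 (gene ID 9656), the most abundant of the group by FPKM, was at 340, 344 and 313 CPM against 349, 329 and 355, with overlapping groups (log2 fold change 0.05, SE 0.0509). ATRIP, the partner that brings ATR to single strands, gave the lowest value of the group, -0.0073. CHEK2 was higher in all 3 AURKA-guide libraries by a small margin (0.12, edgeR adjusted p = 0.358), and ATM, TP53BP1 and the ubiquitin ligases RNF8 and RNF168 had overlapping groups.

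All 6 genes of end resection had values above 0, with the highest median of the 6 role groups, 0.16. MRE11 (gene ID 4361), the nuclease of the complex that starts resection, was at 46.6, 45 and 47.4 CPM in control and 51.7, 53.0 and 56.9 in AURKA-guide libraries. The group means were 46.4 ± 1.22 and 53.9 ± 2.67 CPM (SD, n = 3 each), and the log2 fold change was 0.22 (SE 0.0605, edgeR adjusted p = 0.0928). The groups did not overlap, but the test over all genes was not passed. EXO1 (gene ID 9156), the exonuclease that extends resection and the most abundant of the 6 by FPKM, was at 62.1, 61 and 72.5 CPM against 71.4, 74.1 and 74.3. C3 sat among the AURKA-guide libraries and C1 and C2 below them (log2 fold change 0.17, SE 0.0671, edgeR adjusted p = 0.237). NBN (gene ID 4683), the third subunit of the MRE11 complex, was at 27.7, 28.3 and 30.5 CPM against 32.7, 31 and 32.9, with no overlap (0.16, SE 0.0669, edgeR adjusted p = 0.262). RBBP8, which codes for CtIP, and the nuclease-helicase DNA2 were at 0.14 and 0.18, and RAD50 at 0.086. For those 3 genes and EXO1 the groups overlapped, and for all 6 C3 was the highest control.

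Of the 14 genes of homologous recombination, 11 were above 0, with a median of 0.12. BRCA1 (gene ID 672), which promotes resection and recombination, was at 64.7, 60.3 and 65.6 CPM in control and 69.9, 75.3 and 75.9 in AURKA-guide libraries. The means were 63.5 ± 2.87 and 73.7 ± 3.32 CPM (SD, n = 3 each), 1.16-fold, with a log2 fold change of 0.21 (SE 0.0589, 95% interval 0.088 to 0.34, edgeR adjusted p = 0.0867). BARD1 (gene ID 580), the obligate partner of BRCA1 in its ubiquitin ligase, was at 34.4, 33.8 and 37.5 CPM against 39.1, 41.3 and 42.9 (0.22, SE 0.0667, edgeR adjusted p = 0.120). Both partners were higher in every AURKA-guide library than in any control, by similar amounts. XRCC2 (gene ID 7516), which acts in strand exchange, was at 31.7, 25.8 and 29.3 CPM against 31, 33.1 and 35.8, so A1 lay below C1 (0.20, SE 0.0820, edgeR adjusted p = 0.241). XRCC3 (gene ID 7517), which acts in the same step and had the highest FPKM of the 14, was at 76.8, 80.3 and 70.6 CPM against 81.5, 72.9 and 71.7 and gave -0.0096 (SE 0.0657). RAD51B, the lowest of the 50 by CPM, had 6.92, 6.51 and 8 CPM against 6.35, 6.87 and 6.02, and its 95% interval began at -0.41. RAD51C was at 0.086 and RAD51D at 0.11, with overlapping groups. The helicase BLM was higher without overlap (0.16, edgeR adjusted p = 0.248). BRCA2, its partner PALB2, RAD52, the translocase RAD54L and the helicases WRN and RECQL overlapped, between -0.034 (RAD54L) and 0.14 (RECQL and BRCA2).

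Of the 10 Fanconi genes 9 were above 0, with a median of 0.081, and the exception, FANCF, had groups that did not overlap. FANCF (gene ID 2188), an adaptor of the Fanconi core complex, was at 38.7, 39.8 and 38.1 CPM in control and 32.7, 35.9 and 36.4 in AURKA-guide libraries. Its means were 38.9 ± 0.881 and 35.0 ± 2.03 CPM (SD, n = 3 each), with a log2 fold change of -0.15 (SE 0.0649, edgeR adjusted p = 0.269). The other core complex genes went the other way in value or near 0, with overlapping groups: FANCA 0.077, FANCC 0.042, FANCE 0.061, FANCG 0.015, FANCL 0.11 and FANCM 0.085. BRIP1 (gene ID 83990), the helicase that binds BRCA1, was at 19.9, 19.5 and 23.4 CPM against 24.2, 22.7 and 25.0. C3 exceeded A2, and the log2 fold change was 0.19 (SE 0.0822, edgeR adjusted p = 0.262). FANCI (gene ID 55215), which with FANCD2 forms the clamp that the core complex marks with ubiquitin, was at 177, 174 and 184 CPM against 189, 188 and 195, the highest of the group by FPKM. Both clamp genes were higher in every AURKA-guide library than in any control, with a log2 fold change of 0.10 each (SE 0.0475 for FANCI and 0.0534 for FANCD2, edgeR adjusted p = 0.319 and 0.364).

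All 7 end-joining genes were above 0, with a median of 0.073; after the GC correction described below LIG4 was at -0.023 and the other 6 stayed above 0. DCLRE1C (gene ID 64421), which codes for the end-trimming nuclease Artemis, was at 33.2, 32.3 and 35.6 CPM in control and 36.1, 38.9 and 39.4 in AURKA-guide libraries (0.18, SE 0.0666, edgeR adjusted p = 0.208). PRKDC (gene ID 5591) was at 771, 756 and 766 CPM against 845, 783 and 865 (0.12, SE 0.0463, edgeR adjusted p = 0.219). Neither gene's groups overlapped, and A2 was the AURKA-guide library nearest to control for PRKDC. XRCC4 (gene ID 7518), the scaffold of the ligase, was at 12.8, 12.6 and 15.2 CPM against 14.0, 16.2 and 15.0, with C3 inside the range of the other group (0.16, SE 0.0952, edgeR adjusted p = 0.441). XRCC6 (gene ID 2547) was at 425, 434 and 404 CPM against 441, 458 and 429. The libraries overlapped, with a log2 fold change of 0.073 (SE 0.0468, edgeR adjusted p = 0.467). XRCC5 was at 0.040, LIG4 at 0.057 and NHEJ1, the XRCC4-like factor, at 0.072, all with overlapping groups.

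Of the last 3 genes, PARP1 (gene ID 142) was at 455, 475 and 457 CPM in control and 471, 467 and 474 in AURKA-guide libraries, with a log2 fold change of 0.027 (SE 0.0430, edgeR adjusted p = 0.793) and a 95% interval that ended at 0.12. PARP2 (gene ID 10038), its smaller relative, was at 25.6, 27.4 and 29.7 CPM against 27.4, 25.9 and 21.6. A3 alone was below all controls, and the value was -0.14 (SE 0.0888, edgeR adjusted p = 0.450). POLQ (gene ID 10721), the polymerase of microhomology-mediated joining, was at 48.8, 44.3 and 48.7 CPM against 51.6, 49.1 and 51.6, without overlap (0.10, SE 0.0617, edgeR adjusted p = 0.436).

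**Figure D3:**
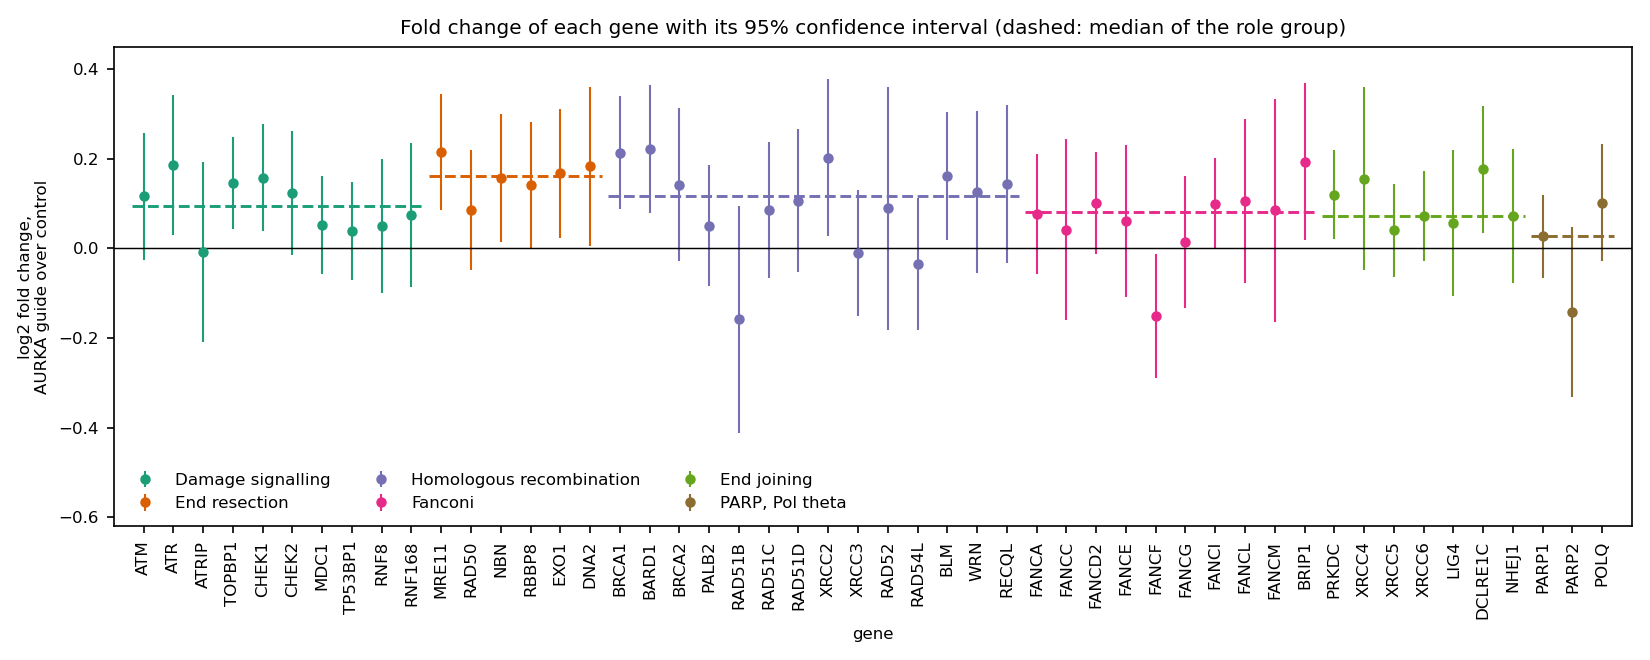
Log2 fold change of each gene, AURKA guide over control, from edgeR on 3 against 3 libraries, with its 95% confidence interval (bars) and the median of its role group (dashed lines). Most points lie above 0, the resection group has the highest median (0.16), and RAD51B, FANCF and PARP2 are the lowest points.

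Set side by side, homologous recombination (0.12), the Fanconi genes (0.081) and end joining (0.073) had medians closer together than the members within each group, whose values spread from -0.16 to 0.22, from -0.15 to 0.19 and from 0.040 to 0.18. The order of these 3 medians was not stable. Without C2 it was end joining 0.096, Fanconi 0.077 and homologous recombination 0.066, and after the correction for GC content described next it was 0.075, 0.061 and 0.072. Without C3 the order was that found with all libraries. Homologous recombination was then at 0.15, the Fanconi genes at 0.11 and end joining at 0.10. Resection had the highest median in each of these fits.

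**Figure D4:**
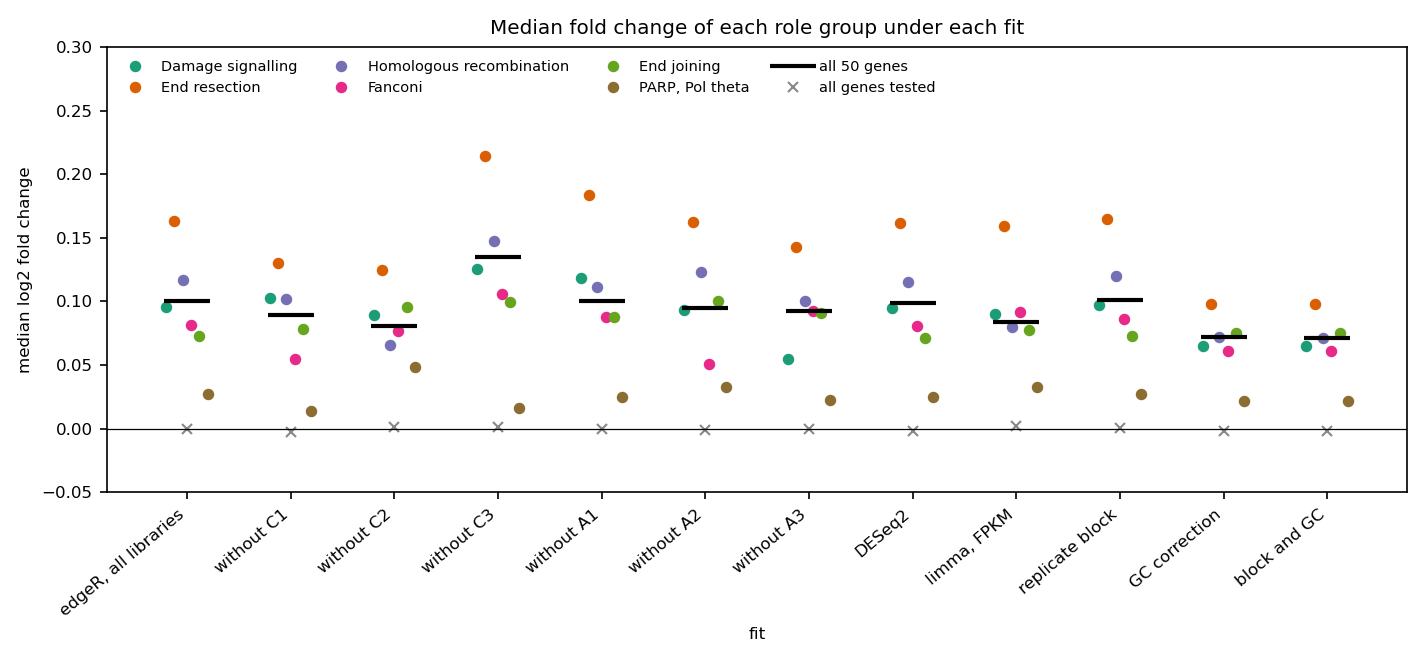
Median log2 fold change of each role group (coloured points), of all 50 genes (black bars) and of all tested genes (crosses) under 12 fits. The medians of all 50 genes lie above 0 in each, from 0.072 with a GC correction to 0.14 without C3, and the 3 groups compared change order.

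The values moved with the base composition of the transcripts. The 50 genes had transcripts with a median of 42.8% GC, where the median of all tested genes was 48.5%. The 30 genes in the lowest class (at most 44% GC) had a median log2 fold change of 0.14 with 29 above 0, where all tested genes of that class had 0.061 and 72.0% above 0. The 15 genes of the middle class were at 0.052 and all tested genes of that class at 0.0034, and the 5 genes above 54% GC were at 0.015 where all genes of that class were at -0.076. In each class the median of the repair genes lay above that of the class as a whole. Across the 50 genes, which share the same 6 libraries, the log2 fold change and GC content had a Pearson correlation of -0.51 and a Spearman correlation of -0.67, against -0.28 and -0.42 across 12879 tested genes. By library, all low-GC genes had a median deviation of -0.014 in C1, -0.075 in C2 and 0.089 in C3. In A1, A2 and A3 it was 0.025, 0.069 and 0.088. C3 was the highest by this measure, close to A3, while A1 lay between C1 and A2.

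A correction that removed each library's trend with GC content gave a median of 0.072 over the 50 genes, with 45 above 0 (background 49.4%), and classes at 0.075, 0.043 and 0.084 from low to high GC. ATRIP (0.056) and XRCC3 (0.084) were then above 0 and LIG4 (-0.023) below. With it, 2 genes passed the test, where 6.04% of all genes were called (3% higher, 3.04% lower): BRCA1 was higher (log2 fold change 0.17, SE 0.0392, edgeR adjusted p = 0.0150) and FANCF lower (-0.18, SE 0.0523, edgeR adjusted p = 0.0457). BRCA1 kept this call in the 4 corrected fits without C1, C2, C3 or A1 (adjusted p from 0.0279 to 0.0486) and lost it without A2 (0.0555) or A3 (0.0841). FANCF kept it only without C3 (0.0261). The background of these 6 fits was 3.72% without C1, 4.18% without C2, 6.51% without C3, 3.46% without A1, 4.86% without A2 and 3.13% without A3. Other genes of the 50 called in them were EXO1, higher without C3 (edgeR adjusted p = 0.0174), and PRKDC, higher without A2 (0.0166). With length added to the correction (background 6.83%) or with the replicate number as a block (6.78%), BRCA1 and FANCF were again the 2 genes called. MRE11 was at 0.15 (edgeR adjusted p = 0.0611) and BARD1 at 0.15 (0.0606) after the correction.

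**Figure D5:**
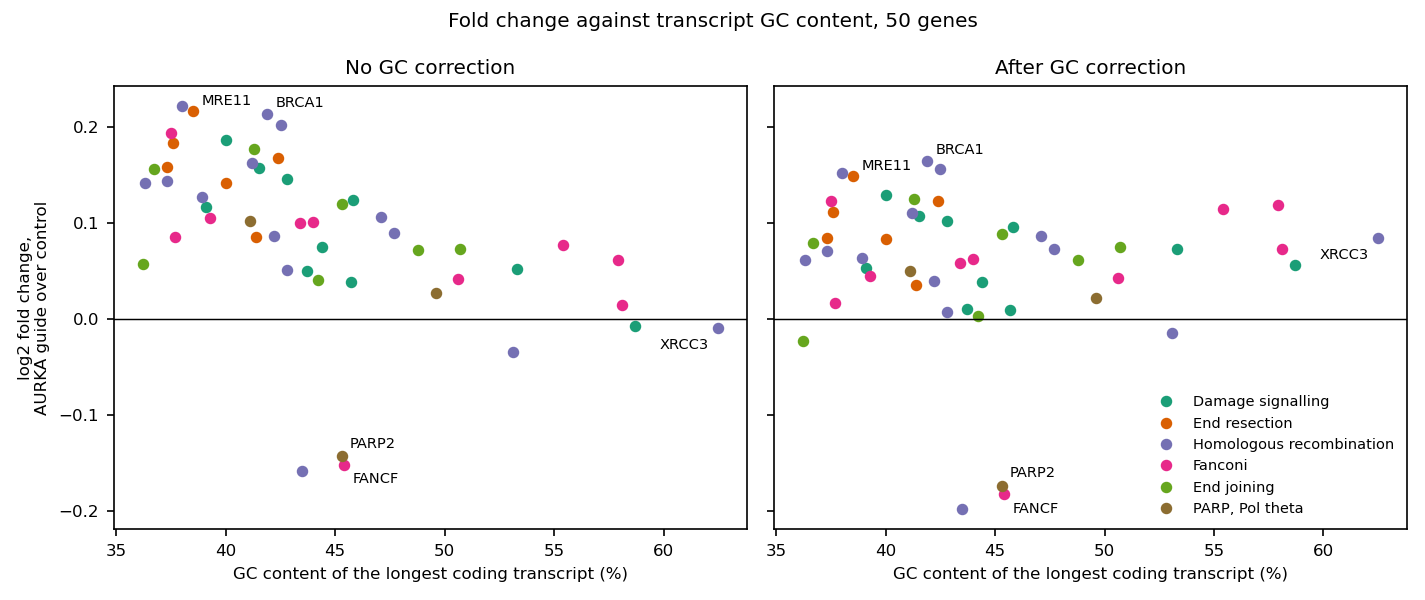
Log2 fold change of each of the 50 genes against the GC content of its longest coding transcript in percent, without (left) and with (right) the GC correction; colours give the role groups. On the left the points slope down from low to high GC (Pearson -0.51), on the right they do not (-0.06), and most stay above 0.

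Leaving out C3, without a GC correction, changed the calls most. Without it, 14 of the 50 passed the test, all higher, where 15.3% of all genes were called (6.81% higher): EXO1, BARD1, BRCA1, ATR, CHEK1, DNA2, MRE11, BRIP1, RECQL, RBBP8, DCLRE1C, BLM, TOPBP1 and NBN. By role these were 5 of 6 resection genes, 4 of 14 of homologous recombination, 3 of 10 of damage signalling, 1 of 10 Fanconi genes and 1 of 7 end-joining genes. EXO1 had the lowest adjusted p (log2 fold change 0.25, SE 0.0523, edgeR adjusted p = 0.00455). With any other single library left out, edgeR called 0 of 50, where it called 0.836% of all genes without C1, 1.76% without C2, 1.16% without A1, 0.760% without A2 and 0.738% without A3. At an unadjusted p under 0.05 the genes of the 50 that were higher numbered 6 without C1 (background 4.81%), 8 without C2 (5.68%), 12 without A1 (6.27%), 9 without A2 (5.50%) and 4 without A3 (4.30%). The part of GC content and of C3 in these values was not tested beyond the fits given.

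Reads of some of these genes cannot be assigned with certainty. In GENCODE release 29, exons of 23 of the 50 overlap an exon of another gene, and for 12 of them that gene is also in the deposited table. Among these, ATRIP shares exon sequence with TREX1 on the same strand, while MRE11 overlaps ANKRD49, DCLRE1C overlaps SUV39H2, FANCI overlaps POLG and XRCC3 overlaps KLC1, each on the opposite strand. Whether the counting used the strand is not given in the sources used here, so these values are uncertain.

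At the level of transcripts, 363 of the 50 genes' transcripts were in the table and 213 passed the filter. The edgeR test called 0 of the 213, where it called 1 of 43979 in all (0.00227%); at an unadjusted p under 0.05 there were 6 higher and 2 lower of the 213, against 1.81% and 2.04% of all transcripts tested. DESeq2 called 4 (background 2.03%), 1 each of TOPBP1, CHEK2, MDC1 and PRKDC. The minor form of PRKDC, NM_001081640.1, was at 330, 243 and 326 expected counts in control and 722, 842 and 805 in AURKA-guide libraries. Its log2 fold change was 1.39 (SE 0.136, edgeR adjusted p = 0.268, DESeq2 adjusted p = 1.01e-19), and its share of the gene's FPKM went from 2.2% to 5.2% on average, while NM_006904.6 held 97.8% and 94.8%. All 3 AURKA-guide libraries had more than the highest control count, and the authors' deposited table gives 1.387 with a q-value of 1.27e-14 for it. CHEK2 NM_001349956.1 was at 40.2, 26.2 and 39.9 expected counts in control and listed at 0 in all 3 AURKA-guide libraries, and MDC1 XM_005249498.4 at 350, 439 and 72.2 against 0, 0.01 and 0. RSEM divides reads between near-identical transcripts, so a transcript at 0 can be a failed estimate. Of 359 transcripts of these genes listed in the authors' deposited table, 6 have a q-value under 0.05, and of those BLM NM_001287247.1, XRCC6 NM_001288978.1 and NBN XM_024447163.1 had counts in 1 AURKA-guide library only.

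One transcript took all FPKM in every library for 9 of the 50 genes, FANCF among them, and the leading transcript held under 50% in control for 21. BRCA1 was divided between NM_007298.3 (40.8% of its control FPKM), NM_007297.3 (30.4%) and NM_007294.3 (23.3%), and the share of the second ranged from 13.1% to 44.2% over the 6 libraries. None of these 3 passed the test (edgeR adjusted p = 1 each). That test called 1 of 43979 transcripts in all, so it could not show which form, if any, carried the difference of the BRCA1 gene. The gene as a whole did not pass the test over all genes either (edgeR adjusted p = 0.0867).

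Other genes of the same pathways, from a list of 59 tested repair genes outside the 50, showed a smaller lean. None was called by edgeR, with 5 higher and 2 lower at an unadjusted p under 0.05, and DESeq2 called 1 and limma 0. The shares of all tested genes at that unadjusted level were 7.54% higher and 8.58% lower. By edgeR 39 of 59 were above 0, 13 had AURKA-guide libraries higher without overlap (background 10.5%) and 1 lower (10.2%), and the median was 0.038. After the GC correction the median of the 59 was 0.034, against 0.072 for the 50 genes. The 2 lists differed in median GC content, 47.2% for the 59 and 42.8% for the 50, and its part in the smaller lean was not tested. The 3 with the smallest p were SMC5, RIF1 and WDR48. SMC5 (gene ID 23137), a subunit of the SMC5/6 complex that holds recombining chromatids, was at 41.5, 37.1 and 46.3 CPM against 51.5, 48.2 and 53.2 (0.29, SE 0.0769, edgeR adjusted p = 0.0731). RIF1 (gene ID 55183), which limits resection, was at 87.2, 80.9 and 93.3 CPM against 98.1, 98.0 and 102 (0.19, SE 0.0589, edgeR adjusted p = 0.131). WDR48 (gene ID 57599), the cofactor of the enzyme that removes ubiquitin from the Fanconi clamp, was at 53.6, 53.1 and 57.4 CPM against 59.4, 62.6 and 61.6 (0.16, SE 0.0579, edgeR adjusted p = 0.191). All 3 had AURKA-guide libraries above every control.

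Many of the 50 genes are known to be expressed with the cell cycle, so cell cycle lists are set beside them. Of 20 replication (S phase) genes all 20 were above 0 (background 50%) and 0 were called by edgeR, DESeq2 or limma. By edgeR 6 were higher at an unadjusted p under 0.05 (background 7.54%), and the median was 0.077. Of 20 mitosis (G2/M) genes all 20 were above 0, with a median of 0.21. Of these, 6 rose by edgeR (background 2.03% in either direction), 8 by DESeq2 (2.14%) and 3 by limma (1.70%). By library the medians of the S phase genes were -0.0015, -0.0054 and 0.013 in C1 to C3 and 0.091, 0.097 and 0.060 in A1 to A3, and those of the G2/M genes were -0.013, -0.065 and 0.084 against 0.17, 0.20 and 0.23. After the GC correction edgeR called 3 of 59 other repair genes, 9 of 20 S phase and 12 of 20 G2/M genes, all higher. The background was then 3% higher and 3.04% lower. Without C3 edgeR called 9 of the 59 higher and 3 lower, and 5 S phase and 17 G2/M genes higher. Of all tested genes it then called 15.3% (6.81% higher). The median of the 50 genes (0.10) lay between those of the S phase and G2/M lists with all libraries and no correction, but below both after the GC correction (0.072, against 0.12 and 0.16) and without C2 (0.081, against 0.090 and 0.17). The part of the cell cycle in their values was not tested. Within the 44 genes with a promoter window, the median was 0.11 with an E2F match and 0.088 without, 0.081 with CCAAT and 0.096 without, and 0.077 with CHR and 0.088 without; the genes without a match include BRCA1 and RAD51B.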

How the data were processed

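RNA-seq libraries were prepared with the BGISEQ500 protocol from Trizol RNA, per the labels' protocols. BWA, Bowtie2, RSEM and the build hg19 are named per the submitters' processing notes; for these, no version, role or setting is stated, nor is strandedness (not given in the sources used here). Tables were deposited by the authors with expected counts per gene and per transcript, RSEM estimates that need not be whole (44.8% of gene values were not), and the authors' FPKM values beside them, per the file headers. The authors' comparison tables hold a log2 fold change and a q-value per feature, from DESeq2 per the file headers. The genes described and all lists were chosen with earlier results of these data known.

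Expected counts were rounded and tested in R 4.3.3 with edgeR 4.0.16: filterByExpr (13138 genes), TMM scaling, the quasi-likelihood F test over 3 against 3 libraries, and Benjamini-Hochberg adjustment over all genes at 0.05. Standard errors come from the F statistic, and CPM values use the scaled library size. Only the edgeR gene fit over all 6 libraries without GC correction was tried on simulated counts. The simulated folds were larger than those of the 50 genes, and no GC trend was simulated. GC content came from the longest coding transcript in GENCODE release 29 (17002 genes, all 50 described). That annotation and RefSeq are of a later build than hg19, so coordinates are given only for promoter windows. The GC correction used as offset a natural spline fitted per library, with 5 degrees of freedom.

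Alternatives were DESeq2 size factors, library size alone, no filter, a mean of at least 10 CPM, DESeq2 1.42.0, limma 3.58.1 on log2(FPKM + 1) and log2(FPKM + 0.1) with at least 0.5 FPKM in 3 libraries, the replicate block, GC correction with or without length or the block, and each library left out. The GC correction without each library was added after the data were seen. Values given in full are, in each role group, the 3 genes of lowest p among those averaging 5 CPM or more, plus the gene with the highest FPKM; BLM, CHEK2, FANCD2, RAD51B and others are named for their values. Same-numbered libraries deviated with correlations of 0.063, -0.106 and 0.135, and the other pairs across groups with -0.253 to 0.211. They were not treated as pairs outside the block fits.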

Additional observations from a re-analysis of the deposited data

How the results depend on the processing

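All 50 genes averaged 6.78 CPM or more; the lowest in counts, RAD51B and RAD52, had the widest standard errors, 0.118 and 0.127. With DESeq2 size factors, library size alone, no filter, DESeq2 and both FPKM fits, 0 of the 50 genes were called, and with the 10 CPM minimum 0 of the 48 left. The GC correction, alone, with length, or with the replicate block, called 793, 897 and 891 genes and, of the 50, 1 higher (BRCA1) and 1 lower (FANCF) each. With length the median of damage signalling was 0.0513. DESeq2 called 4 transcripts of these genes. The replicate block alone called 385 genes and 0 of the 50. Whether same-numbered libraries belong together is not given in the sources used here. Leaving out 1 library, with or without the GC correction, gave 98 to 2034 genes called, 0 to 14 of the 50 higher and 0 to 1 lower; medians ran from 0.0506 to 0.1255 for damage signalling, 0.0806 to 0.2144 for resection, 0.0517 to 0.1479 for homologous recombination, 0.0512 (without A2) to 0.1061 (without C3) for the Fanconi genes and 0.0497 (without A2, GC-corrected) to 0.10 (without A2) for end joining. The cause was not tested.

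Signs changed only for genes that passed no test in these fits. ATRIP was at 0.0562, 0.0465 and 0.0573, XRCC3 at 0.0841, 0.0784 and 0.0837, and LIG4 at -0.0232, -0.0214 and -0.0252 in the GC, GC with length and block with GC fits. TP53BP1 was at -0.0099 with GC and length, and RAD52 at -0.0167 and -0.0226 on log2(FPKM + 1) and log2(FPKM + 0.1). With 1 library left out, with or without the GC correction, signs also changed within the ranges -0.0698 to 0.1264 for ATRIP, -0.0073 to 0.0516 for TP53BP1, -0.0268 to 0.0787 for RNF8, -0.0190 to 0.1203 for RNF168, -0.0048 to 0.2031 for BRCA2, -0.0219 to 0.0759 for PALB2; -0.0705 to 0.1023 for XRCC3, -0.0207 to 0.2223 for RAD52, -0.0738 to 0.0101 for RAD54L, -0.0021 to 0.1930 for WRN, -0.0152 to 0.0995 for FANCC, -0.0300 to 0.0963 for FANCG; and -0.0043 to 0.1741 for FANCL, -0.0415 to 0.2623 for FANCM, -0.0095 to 0.0797 for XRCC5, -0.0589 to 0.0998 for LIG4.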
